A study of Rattus norvegicus with 9 samples.

Results

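The collagen genes described here are the 42 gene symbols made of Col, a type number, the letter a and a chain number, out of 32623 Ensembl gene IDs in the table. Each symbol had 1 row, every one had at least 1 read, and 37 passed the filter on low counts and were tested. Col1a2, Col6a3 and Col21a1 had no row under these symbols, so the sums, shares and ranks below leave them out. Rat oligodendrocyte precursor cells (OPCs), the brain cells that mature into myelinating oligodendrocytes, were purified from wild-type (WT) brain and kept for 5 days in differentiation medium (DMEM-F12 with laminin, biotin, B27 and N1). Of the 9 bulk mRNA libraries, 3 were basal (no bavisant), 3 came from cells given 1 µM and 3 from cells given 10 µM bavisant, which blocks the H3 receptor for histamine. The treatment label gives 1 µM, used here, where the protocols write 1 mM. Each group held a library labelled P11, one labelled P13 and one labelled P14. The labels do not say what P marks, nor that the libraries come from separate cultures or animals, so p-values measure the spread between these libraries, which may be technical. The comparisons ask how collagen expression differed between the basal cells and the lower and the higher dose.

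Collagens are extracellular matrix proteins whose alpha chains wind into a triple helix. Fibrillar types (I, II, III, V, XI and others) pack into fibrils, type IV forms the network of basement membranes, type VI forms beaded filaments, and FACIT collagens (fibril-associated, such as IX, XII and XVI) sit on the surface of fibrils. The chains are hydroxylated and folded in the endoplasmic reticulum, trimmed and crosslinked outside the cell, and read by integrins, discoidin domain receptors and other receptors. In the brain, fibrillar and basement membrane collagens are known mainly from the meninges and from blood vessel walls, whose fibroblasts, mural cells and endothelial cells make them.

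The libraries held 23.9 to 43.1 M estimated reads (M, 1e+06). All 12 oligodendrocyte lineage markers, among them Olig2 and Mbp, were tested, and they summed to 35394 to 51617 TPM (a level scaled by gene length and library total). With the P number as a block in the test (explained with the dose comparison), 7 of these 12 markers were higher and 0 lower at 10 µM than at basal (background of all genes 2.64% lower and 1.32% higher), with a median log2 fold change of 0.30. Markers of other cells were present too: the 22 fibroblast and mural cell markers (such as Pdgfrb, Foxc1 and Dcn) summed to 145 to 371 TPM, the 12 astrocyte markers to 1221 to 2232 TPM, and the 13 microglia markers to 911 to 1441 TPM. Endothelial markers summed to 13.6 to 39.2 TPM, those of Schwann cells to 43.6 to 80.5 TPM and those of neurons to 211 to 475 TPM. The endothelial sum was mostly Cdh5 and Eng, at 18.8 and 10.5 of 35.7 TPM in basal P11, and Cldn5 stayed under 0.1 TPM.

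The collagen transcripts summed to 1013, 587 and 317 TPM in the basal P11, P13 and P14 libraries. At 1 µM the sums were 1066, 613 and 334 TPM, and at 10 µM they were 831, 402 and 295 TPM in the same order. Within each P number the 10 µM library had the lowest sum and the 1 µM library the highest, but the range across P numbers was wider than any difference between doses, and the groups overlapped. Of the 42 genes, 20 were at 1 TPM or more in all 9 libraries, 9 were at 10 TPM or more in all 9, and 16 stayed under 1 TPM in each. Col1a1 and Col3a1, the interstitial fibril chains of types I and III, together made up 46.2% of the collagen TPM in the basal P11 library but 15.4% in the basal P14 library. The 5 untested genes, Col10a1, Col17a1, Col24a1, Col25a1 and Col6a4, had at most 10 reads in any library.

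**Figure D1:**
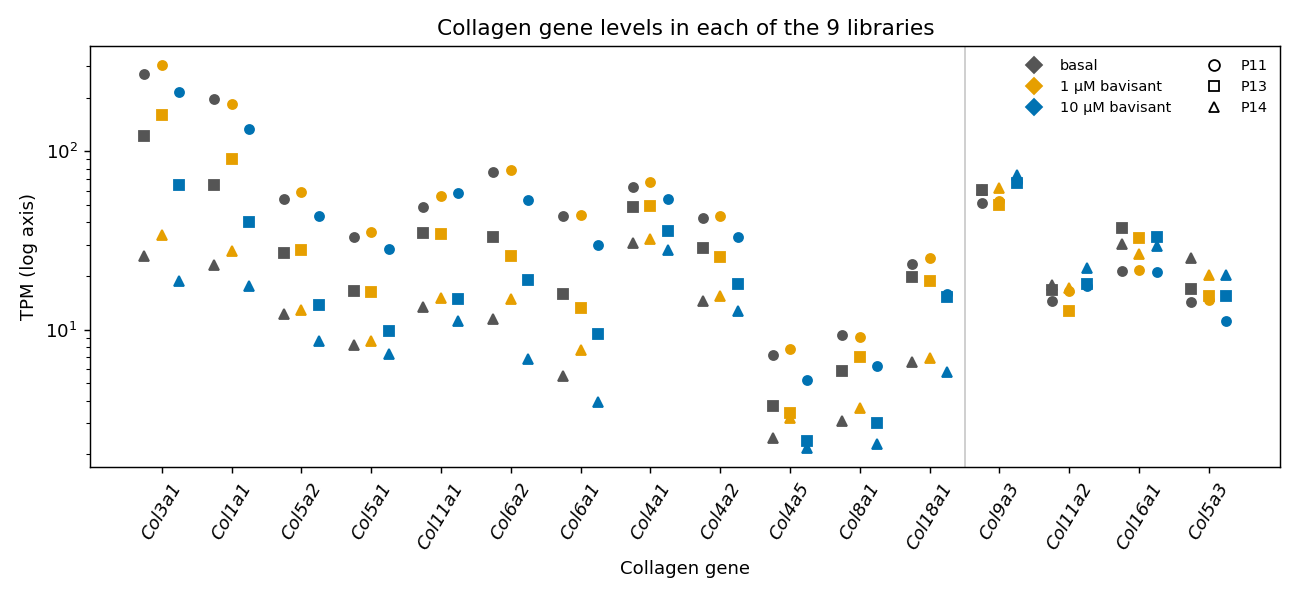
Level of 16 collagen genes (horizontal axis) in TPM (vertical log axis) in each of the 9 libraries, with colour for the dose and shape for the P number. Most genes left of the vertical line run from high in P11 (circles) to low in P14 (triangles), from 271 to 25.9 TPM for basal Col3a1, while Col9a3, to the right of the line, stays between 50.1 and 73.8 TPM.

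Before the doses are compared, the spread across P numbers has to be seen, because it was the wider of both. In a fit with dose and P number, 28 of the 37 tested collagen genes differed between P11 and the mean of P13 and P14, 21 of them higher and 7 lower in P11. Over all 15321 genes tested, 50.6% differed in this contrast, 25.2% higher and 25.4% lower. That P11 stood apart was known from earlier results of these data. The median log2 fold change of the collagen genes was 1.10, against 0.00 for all genes. P14 was lower than P13 for 15 collagen genes (background 7.38%) and higher for 1, Col5a3 (background 4.88%). Within each of the 3 groups, 16 of the 37 genes had their highest level in P11 and their lowest in P14, against 10.3% of all genes, and 2, Col2a1 and Col28a1, had the opposite order, against 8.88%.

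Most of the tested markers of fibroblasts and mural cells moved along the same axis. Of the 18 of these 22 markers that were tested, 14 were higher and 1 was lower in P11 than in the mean of P13 and P14. The background of all genes was 25.2% higher and 25.4% lower. The median log2 fold change of the 18 was 1.74. The whole list summed to 260 to 371 TPM in the 3 P11 libraries, to 171 to 226 TPM in the 3 P13 libraries and to 145 to 187 TPM in the 3 P14 libraries, so P11 did not overlap with the others and the rest overlapped. Foxc1, a transcription factor of meningeal fibroblasts, was at 41.9, 18.8 and 3.39 TPM in the basal P11, P13 and P14 libraries. Twist1, a mesenchymal transcription factor, was at 9.76, 3.57 and 0.543 TPM in the same libraries. The contractile smooth muscle genes of the list went otherwise. Their log2 fold changes were 0.00 ± 0.18 for Acta2 and -0.15 ± 0.08 for Tagln, with a fall of 0.54 ± 0.13 for Myh11. Notch3 averaged 12.6, 8.35 and 15.4 TPM in the P11, P13 and P14 libraries. Rgs5, Abcc9, Kcnj8 and Des, at 0.478 TPM or less in every library, were not tested. Other marker lists also differed in P11. Of 8 tested endothelial markers 4 were higher and 3 lower (median 0.82). For Schwann cells 4 of 8 were higher and 2 lower (median 0.78), and for oligodendrocytes 7 of 12 and 2 (median 0.17). Astrocyte markers had 4 of 12 higher and 4 lower (median -0.04). Neuron markers had 3 of 9 and 5 (median -0.57), and microglia markers 0 of 13 and 9 (median -0.33). In bulk RNA, fewer cells of a type and less RNA per cell cannot be told apart. The part any of these cells have in the collagen values was not tested.

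**Figure D2:**
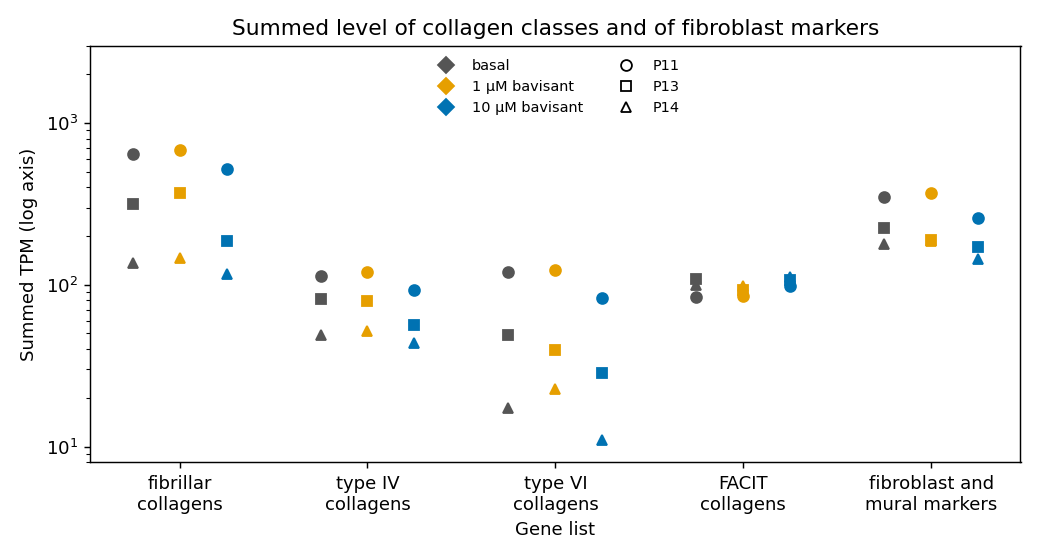
Summed TPM (vertical log axis) of 4 collagen classes and of the fibroblast and mural cell markers in each of the 9 libraries, with colour for the dose and shape for the P number. Fibrillar, type IV and type VI sums and the markers are highest in the P11 libraries (circles), while the FACIT sum stays between 84.4 and 112 TPM.

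For the dose comparisons, same-numbered libraries deviated together from their group means, so each gene was tested by edgeR's quasi-likelihood test (p-values adjusted by Benjamini-Hochberg over all 15321 genes) both without and with the P number as a block. Without the block, 0 of the 37 collagen genes passed an adjusted p of 0.05 at 10 µM against basal, and 0% of all genes did. At an unadjusted p under 0.05 there were 2, Col9a3 and Col11a2, against 5.27% of all genes, both higher (background 2.28%), and DESeq2 and limma without the block also called 0. With the block, 4 of the 37 passed at 10 µM against basal, where 3.96% of all genes passed. Col5a2, Col6a2 and Col8a1 fell (background of falls 2.64%) and Col9a3 rose (background of rises 1.32%). The median log2 fold change of the collagen genes was -0.32, with 30 estimates below and 7 above 0. For all genes the median was -0.01, with 8090 of 15321 estimates below 0. At an unadjusted p under 0.05 the blocked fit had 16 collagen genes, against 22.4% of all genes, with 14 lower (background 13%) and 2 higher (background 9.47%). The 10 µM library was below the basal one in all 3 P numbers for 18 genes, against 24.3% of all genes, and above it in all 3 for 4 genes, against 20.5%. In what follows, a log2 fold change given with ± is from the blocked fit, with its SE (9 libraries, 3 per group).

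These calls rested on few libraries. Without any of the basal libraries or the 10 µM P14 library the blocked fit called 0 collagen genes, without the 1 µM P11 or the 10 µM P13 library it called 1, without the 10 µM P11 library it called 2, and without the 1 µM P13 library it called 8. Leaving out all P11 or all P14 libraries left 0 and leaving out all P13 libraries left 1. These are counts of collagen genes, and the share of all genes called in each run is not given here. Over the 9 blocked runs that each left out 1 library, Col5a2 was called in 3, Col6a2 and Col9a3 in 2 and Col8a1 in 1.

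**Figure D3:**
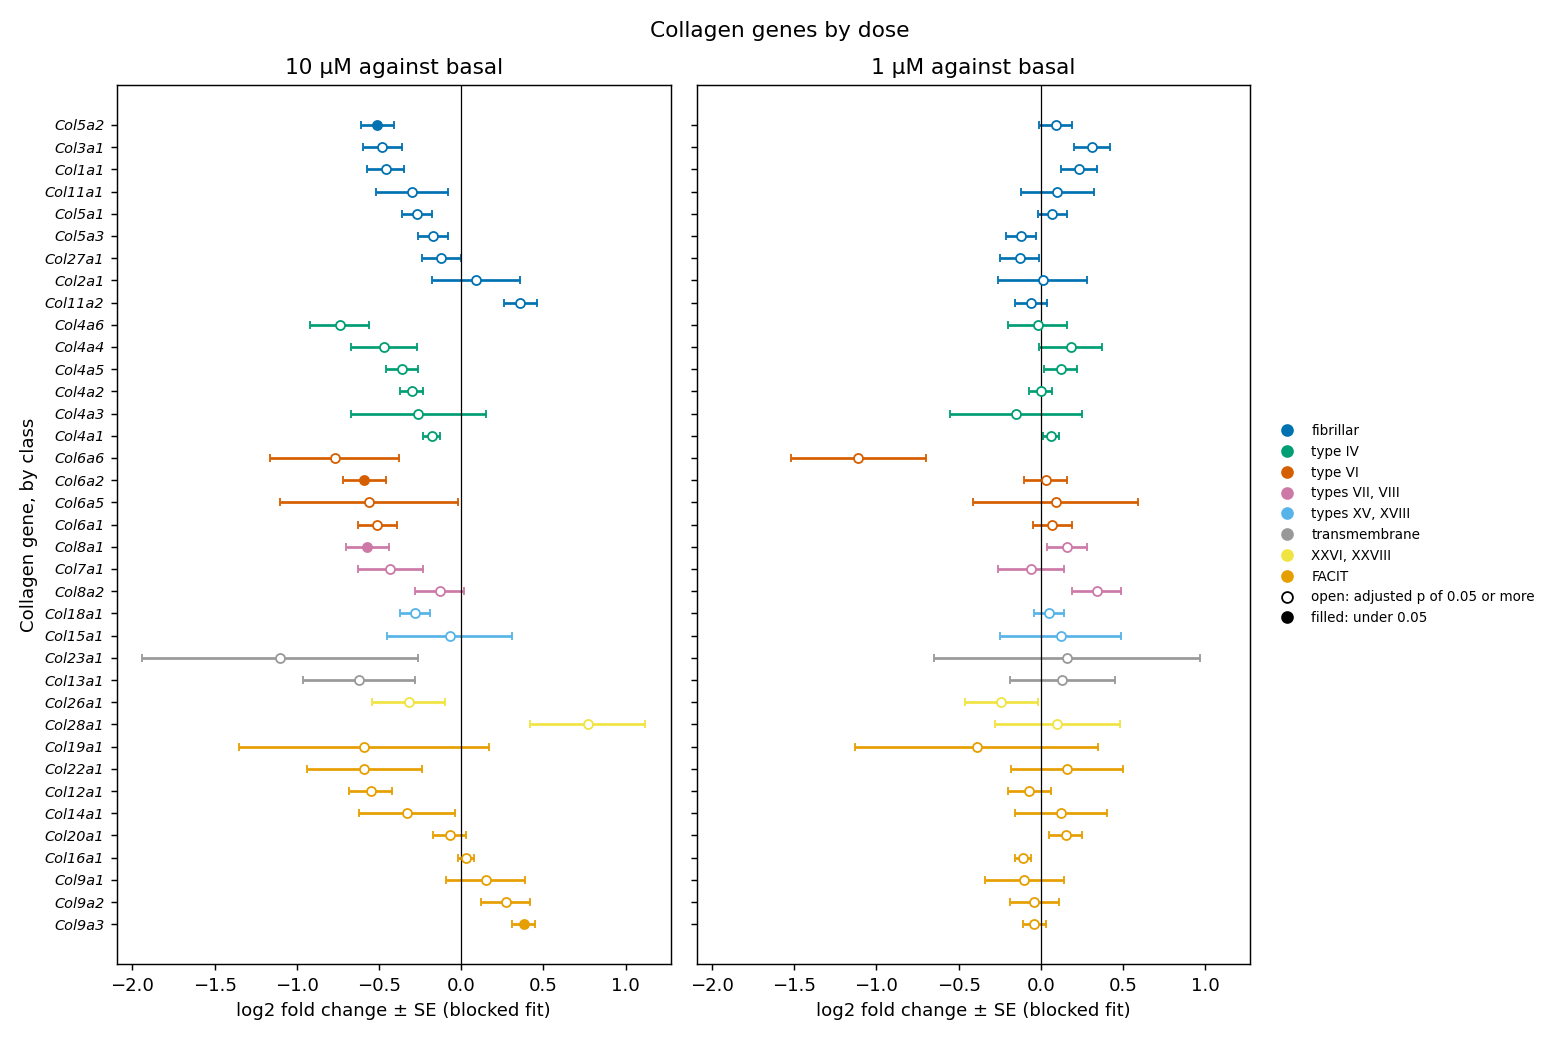
Log2 fold change of each of the 37 tested collagen genes (rows, coloured by class) at 10 µM (left) and 1 µM (right) against basal, with bars for the SE of the blocked fit and filled points for an adjusted p under 0.05. On the left 30 of 37 points lie below 0 and 4 are filled, and on the right no point is filled.

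At 1 µM against basal no collagen gene passed the test with or without the block, and 0% of all genes did. DESeq2 and limma also called 0 of the collagen genes with and without it. Over all 15321 genes, DESeq2 with the block called 8. At an unadjusted p under 0.05 the blocked fit had 3 of 37, against 3.8% of all genes, and the fit without the block had 0, against 0.529%. Of the 3, Col3a1 (0.31 ± 0.11) and Col8a2 (0.34 ± 0.15) were higher (background 1.91%), and Col6a6, a minor type VI chain, was lower (-1.11 ± 0.41, background 1.89%). The 1 µM library was above the basal one in all 3 P numbers for 4 collagen genes, against 13.7% of all genes, and below it for 1, against 14.3%. The median over the 37 genes was 0.06.

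Set against 1 µM instead of basal, the same 10 µM libraries gave more calls. With the block, 10 of 37 collagen genes passed, where 4.3% of all genes passed. Col1a1, Col3a1, Col5a2, Col4a1, Col4a5, Col6a1, Col6a2 and Col8a1 fell (background of falls 3%), and Col9a3 and Col11a2 rose (background of rises 1.31%). Without the block edgeR called 0 collagen genes and 0% of all genes, with 3 collagen genes at an unadjusted p under 0.05 against 4.68% of all genes, 1 lower (background 2.96%) and 2 higher (background 1.72%), while limma called 0, and DESeq2 called 1, Col9a3. At an unadjusted p under 0.05 the blocked fit had 15 lower (background 12.8%) and 3 higher (background 8.43%). The 10 µM library was below the 1 µM one in all 3 P numbers for 16 genes, against 21.9% of all genes, and above it for 5, against 20.5%. Both comparisons share the 10 µM libraries, so the calls in them are not independent of each other. Without any of the 1 µM libraries or the 10 µM P14 library the blocked fit called 0 at 10 µM against 1 µM, without the 10 µM P13 library 2, without the basal P11 library 5 and without the 10 µM P11 library 6. Leaving out all P11 libraries left 3, and leaving out all P13 or all P14 libraries left 0. For these runs, too, the share of all genes called is not given here. Over the 9 blocked runs that each left out 1 library, Col4a1 and Col6a2 were called in 0 and Col11a2 in 1. Col4a5 and Col6a1 were called in 2, Col1a1, Col8a1 and Col9a3 in 4, and Col3a1 and Col5a2 in 5.

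Among the 9 tested fibrillar collagens, only Col5a2 was called at 10 µM against basal, as lower (background of all genes 2.64% lower and 1.32% higher). The median log2 fold change of the 9 was -0.27. Col5a2 (ENSRNOG00000003736) encodes a chain of type V collagen, which starts and sizes type I fibrils. It was at 53.7, 27.0 and 12.2 TPM in the basal P11, P13 and P14 libraries, at 58.9, 27.8 and 12.9 TPM at 1 µM, and at 43.3, 13.8 and 8.60 TPM at 10 µM. The 10 µM library was the lowest within each P number, while the groups overlapped across P numbers. Its log2 fold change at 10 µM was -0.51 ± 0.10 against basal (adjusted p = 0.0345) and -0.59 ± 0.10 against 1 µM (adjusted p = 0.0228). Its partner Col5a1 (ENSRNOG00000008749) went from 33.0, 16.4 and 8.22 TPM at basal and 35.4, 16.2 and 8.62 TPM at 1 µM to 28.3, 9.88 and 7.33 TPM at 10 µM, with -0.27 ± 0.09 against basal (adjusted p = 0.129). The ratio of Col5a1 to Col5a2 TPM was 0.632 ± 0.0361 at basal and 0.740 ± 0.102 at 10 µM (SD, n = 3).

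Col3a1 (ENSRNOG00000003357) and Col1a1 (ENSRNOG00000003897), with the highest mean TPM of the collagen genes that had a row, missed the test against basal and passed it against 1 µM. Col3a1 was at 271, 122.5 and 25.9 TPM at basal, at 304, 159.7 and 33.8 TPM at 1 µM and at 216, 64.7 and 18.7 TPM at 10 µM. Its log2 fold change at 10 µM was -0.48 ± 0.12 against basal (adjusted p = 0.0582) and -0.79 ± 0.12 against 1 µM (adjusted p = 0.0174). Within every P number the 1 µM library had the most Col3a1 and the 10 µM library the least, and its highest and lowest levels over the 9 libraries were 16.3-fold apart. Col1a1 was at 197, 65.1 and 23.0 TPM at basal, at 184, 90.6 and 27.6 TPM at 1 µM and at 133, 40.0 and 17.5 TPM at 10 µM. The change at 10 µM was -0.46 ± 0.11 against basal (adjusted p = 0.0595) and -0.69 ± 0.11 against 1 µM (adjusted p = 0.0225). In P11, unlike P13 and P14, Col1a1 was no higher at 1 µM than at basal.

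The type XI chains, fibrillar collagens best known from cartilage, parted. Col11a2 (ENSRNOG00000000463) was at 14.5, 16.6 and 17.7 TPM at basal, at 16.4, 12.7 and 17.0 TPM at 1 µM and at 17.6, 18.1 and 22.1 TPM at 10 µM. It was highest at 10 µM within each P number, with 0.36 ± 0.10 against basal (adjusted p = 0.0771) and 0.42 ± 0.10 against 1 µM (adjusted p = 0.0499). Col11a1 (ENSRNOG00000023148) was at 48.4, 34.9 and 13.4 TPM at basal, at 56.1, 34.2 and 15.1 TPM at 1 µM and at 58.0, 14.8 and 11.1 TPM at 10 µM. Its log2 ratios of 10 µM to basal were 0.30 in P11, -1.09 in P13 and -0.19 in P14, and its log2 fold change of -0.30 ± 0.22 had an adjusted p of 0.460. Col5a3 (ENSRNOG00000020525), a minor type V chain, was the only tested collagen to pass the test as higher in P14 than in P13. It was at 14.4, 16.9 and 25.1 TPM at basal, 14.6, 15.5 and 20.2 TPM at 1 µM and 11.2, 15.4 and 20.1 TPM at 10 µM, and its change at 10 µM against basal was -0.17 ± 0.09 (adjusted p = 0.297).

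Type IV collagen, the basement membrane network, had 6 genes tested. All 6 estimates at 10 µM were below 0 against basal (8090 of 15321 for all genes), with a median of -0.33. Of the 6, 0 were called (background of all genes 2.64% lower and 1.32% higher). Col4a1 (ENSRNOG00000016281) was at 62.9, 48.6 and 30.5 TPM at basal, at 67.4, 49.5 and 32.1 TPM at 1 µM and at 54.0, 35.7 and 28.0 TPM at 10 µM. It was lowest at 10 µM within each P number, with -0.18 ± 0.05 against basal (adjusted p = 0.102) and -0.24 ± 0.05 against 1 µM (adjusted p = 0.0455). Its partner Col4a2 (ENSRNOG00000023972), which joins Col4a1 in the usual trimer, was at 42.0, 28.6 and 14.5 TPM at basal, at 43.6, 25.4 and 15.5 TPM at 1 µM and at 33.2, 18.0 and 12.8 TPM at 10 µM. Its log2 fold change was -0.30 ± 0.07 against basal (adjusted p = 0.0586) and -0.30 ± 0.07 against 1 µM (adjusted p = 0.0578). Col4a5 (ENSRNOG00000018951), a chain of other type IV trimers, was at 7.19, 3.71 and 2.48 TPM at basal, 7.74, 3.42 and 3.19 TPM at 1 µM and 5.24, 2.37 and 2.18 TPM at 10 µM. It missed the test against basal with -0.36 ± 0.10 (adjusted p = 0.0791) and fell against 1 µM by 0.49 ± 0.10 on the log2 scale (adjusted p = 0.0355).

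Col4a1 and Col4a2 lie head to head. Their shared start region is shown because these partner chains varied together, with a ratio of 1.5 to 2.19 across the 9 libraries. This was not particular to the pair. Its highest and lowest ratios were 1.463-fold apart, against 1.2-fold for Col6a2 to Col6a1. They were 1.325-fold apart for Col9a3 to Col9a2 and 1.464-fold for Col5a1 to Col5a2. RefSeq promoter windows (250 bases before to 50 after the start site, build GRCr8) matched 33 of the 42 symbols, with 36 windows. The Col4a1 and Col4a2 start sites are 77 bases apart on opposite strands, and their windows overlap by 176 bases. Those of Col4a3 and Col4a4 are 413 bases apart, also on opposite strands, with an overlap of 88 bases. Their ratio of Col4a4 to Col4a3 ran from 3.9 to 26.7 at low levels. Col4a5 and Col4a6 start 1415 bases apart, with a ratio of 6.91 to 13.2. Whether a shared start region bears on these ratios was not tested. Of the motifs searched on both strands, the CCAAT box (CCAAT) was in 11 of the 36 collagen windows and in 37.5% of all 33469 windows. The GC box (GGGCGG) was in 20 of 36, against 33.1% of all, the TATA box (TATAAA) in 3, against 14.2%, and the AP-1 site (TGANTCA) in 1, that of Col6a1, against 7.33%. In the Col4a1 window (chr16:84885347-84885646, plus strand, 75.0% GC) the capitals mark 2 CCAAT boxes and 2 GC boxes, none of which overlap.
Col4a1: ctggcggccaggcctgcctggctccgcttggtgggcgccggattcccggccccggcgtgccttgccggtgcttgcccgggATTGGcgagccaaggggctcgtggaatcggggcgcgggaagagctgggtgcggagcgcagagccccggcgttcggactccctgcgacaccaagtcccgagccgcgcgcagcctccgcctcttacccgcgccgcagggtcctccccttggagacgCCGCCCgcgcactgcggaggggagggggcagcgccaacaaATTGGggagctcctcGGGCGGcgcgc

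Type VI collagen forms beaded filaments that tie cells to fibrils, and its 4 tested genes had a median of -0.58 at 10 µM against basal. Col6a2 (ENSRNOG00000001254) was at 76.5, 32.9 and 11.5 TPM at basal, at 78.8, 25.8 and 14.9 TPM at 1 µM and at 53.1, 18.9 and 6.86 TPM at 10 µM. It fell at 10 µM by 0.59 ± 0.13 against basal (adjusted p = 0.0472) and by 0.62 ± 0.13 against 1 µM (adjusted p = 0.0393) on the log2 scale. Col6a1 (ENSRNOG00000001249) was at 43.1, 15.8 and 5.47 TPM at basal, at 43.6, 13.3 and 7.69 TPM at 1 µM and at 29.7, 9.50 and 3.91 TPM at 10 µM. At 10 µM it differed by -0.51 ± 0.12 from basal (adjusted p = 0.0555) and by -0.58 ± 0.12 from 1 µM (adjusted p = 0.0372). Both chains were lowest at 10 µM within each P number, and their ratio stayed between 1.76 and 2.11 in all 9 libraries while each level ranged over 11.2-fold or more.

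Col8a1 (ENSRNOG00000039668) encodes a short-chain, network-forming collagen known from blood vessel walls and corneal basement membrane. It was at 9.33, 5.85 and 3.06 TPM at basal, at 9.08, 7.07 and 3.64 TPM at 1 µM and at 6.29, 2.998 and 2.27 TPM at 10 µM. The 10 µM library was lowest within each P number, and Col8a1 fell by 0.57 ± 0.13 against basal (adjusted p = 0.0476) and by 0.73 ± 0.12 against 1 µM (adjusted p = 0.0240). Its partner Col8a2 was at 7.76, 2.86 and 1.19 TPM at basal and at 7.75, 1.85 and 1.17 TPM at 10 µM, and the ratio of Col8a1 to Col8a2 ran from 0.811 to 2.70. The windows of Col8a1 and Col11a2 are shown because these genes were called in opposite directions at 10 µM against 1 µM. Capitals mark 4 GC boxes for Col8a1 (chr11:56246532-56246831, plus strand, 62.7% GC) and 3 GC boxes, of which 2 overlap, for Col11a2 (chr20:4817599-4817898, minus strand, 62.7% GC).
Col8a1: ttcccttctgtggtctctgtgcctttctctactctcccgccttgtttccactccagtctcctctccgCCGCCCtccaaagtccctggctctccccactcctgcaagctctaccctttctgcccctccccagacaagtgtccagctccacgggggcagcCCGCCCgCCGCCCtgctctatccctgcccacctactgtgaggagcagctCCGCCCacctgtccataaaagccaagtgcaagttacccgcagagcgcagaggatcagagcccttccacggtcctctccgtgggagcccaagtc
Col11a2: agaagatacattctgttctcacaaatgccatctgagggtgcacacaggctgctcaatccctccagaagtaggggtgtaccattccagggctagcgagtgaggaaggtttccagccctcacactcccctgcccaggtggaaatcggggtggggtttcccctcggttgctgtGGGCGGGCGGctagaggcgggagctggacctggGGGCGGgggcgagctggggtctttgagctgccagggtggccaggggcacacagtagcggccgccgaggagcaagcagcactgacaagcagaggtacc

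The 9 tested FACIT genes had a median of -0.07 at 10 µM against basal, with 5 estimates below 0. There was 1 rise and there were 0 falls (background of all genes 1.32% higher and 2.64% lower). Col9a3 (ENSRNOG00000009531), a type IX chain, was at 51.5, 60.7 and 61.0 TPM at basal, at 52.8, 50.1 and 62.3 TPM at 1 µM and at 67.3, 66.0 and 73.8 TPM at 10 µM. Every 10 µM library was above every basal and 1 µM library, so the groups did not overlap. It rose at 10 µM by a log2 fold change of 0.38 ± 0.07 against basal (adjusted p = 0.0315) and 0.42 ± 0.07 against 1 µM (adjusted p = 0.0236). Its level ranged only 1.47-fold over the 9 libraries, and P11 did not differ from the other P numbers by the test (-0.06 ± 0.06, adjusted p = 0.479). The other type IX chains were lower, with ratios of Col9a3 to Col9a2 from 27.1 to 35.9 and of Col9a3 to Col9a1 from 20.9 to 66.9. Col16a1 (ENSRNOG00000031475) was at 21.4, 37.0 and 30.3 TPM at basal, at 21.7, 32.5 and 26.7 TPM at 1 µM and at 21.1, 32.9 and 29.5 TPM at 10 µM. Its log2 fold change at 10 µM against basal was 0.03 ± 0.05 (adjusted p = 0.804), and it was lower in P11 than in the other P numbers by 0.48 ± 0.05 on the log2 scale.

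**Figure D4:**
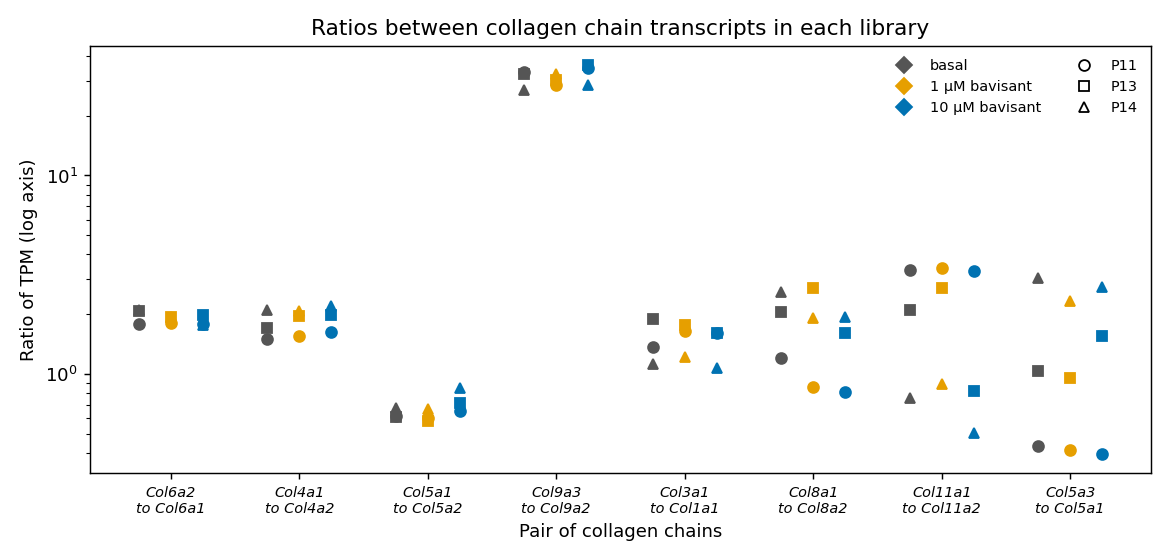
Ratio of TPM between collagen chains (vertical log axis, 8 pairs along the horizontal axis) in each of the 9 libraries, with colour for the dose and shape for the P number. The chains of type VI (1.76 to 2.11) and type IV (1.5 to 2.19) keep close ratios. The type IV ratio is still ordered by P number, at 1.5 to 1.63 in P11, 1.7 to 1.98 in P13 and 2.07 to 2.19 in P14. Col11a1 to Col11a2 (0.504 to 3.43) and Col5a3 to Col5a1 (0.396 to 3.06) spread widely by P number.

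Across the 37 tested genes, those higher in P11 tended to have a lower estimate at 10 µM, with a Pearson r of -0.589 and a Spearman rho of -0.526 between the log2 fold change of P11 against the mean of P13 and P14 and that of 10 µM against basal. Over all 15321 genes r was -0.119 and rho -0.065. Genes are not independent replicates and both values come from the same 9 libraries, so these are descriptions with no test. Col3a1 was 2.38 ± 0.09 higher in P11 on the log2 scale, Col6a2 2.12 ± 0.11 and Col8a1 1.10 ± 0.10, whereas Col9a3 and Col11a2 showed no difference past the test between P11 and the other P numbers. The median change of the fibroblast and mural cell markers at 10 µM against basal was -0.38 (log2), with 17 of 18 estimates below 0 and 1 passing the test, Notch3 (-0.61 ± 0.12, adjusted p = 0.0356), and none of the 22 was at 0 in every library. Their sums were 351, 226 and 180 TPM at basal and 260, 171 and 145 TPM at 10 µM in P11, P13 and P14. Of these sums, the contractile gene Tagln alone gave 98.4, 85.9 and 123 TPM at basal and 62.9, 76.5 and 97.8 TPM at 10 µM. Foxc1 was at 36.4, 12.1 and 2.31 TPM at 10 µM. Of the other marker lists at 10 µM against basal (background of all genes 2.64% lower and 1.32% higher), 4 of 12 tested astrocyte markers, 3 of 13 microglia markers, 3 of 9 neuron markers and 1 of 8 endothelial markers (Eng) fell and 0 rose, while 1 of 8 Schwann cell markers (Pmp2) rose and 0 fell. The part of all these cells in the dose values was not tested.

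**Figure D5:**
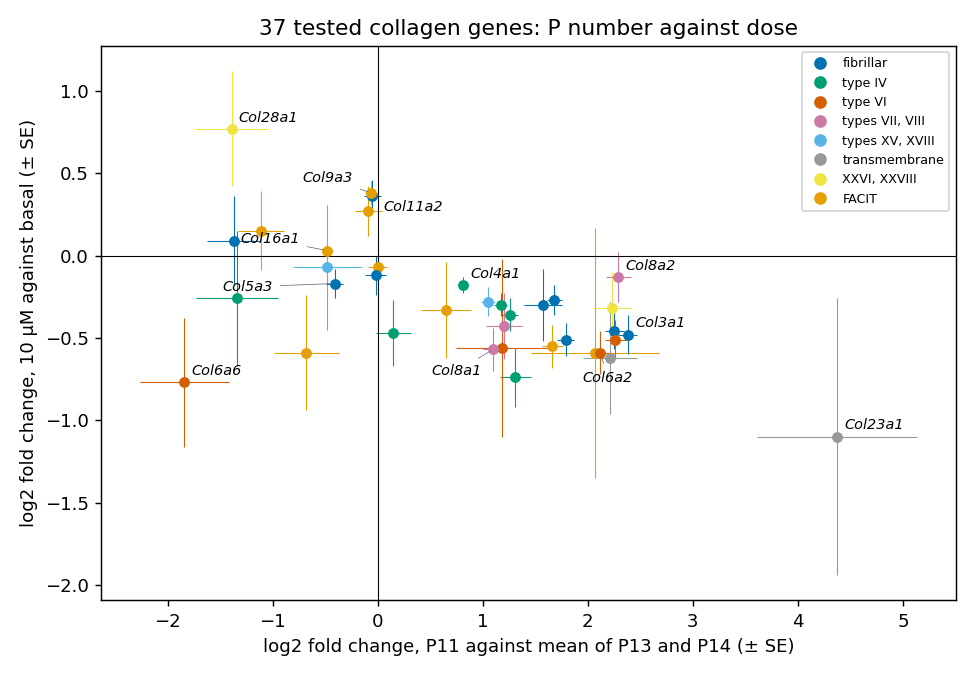
Log2 fold change at 10 µM against basal (vertical axis) and of P11 against the mean of P13 and P14 (horizontal axis) for the 37 tested collagen genes, coloured by class, with bars for the SE. Genes at the right, such as Col3a1 at 2.38 and -0.48, lie below 0, and Col9a3 at -0.06 and 0.38 lies above 0.

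Genes that make, finish and bind collagen were taken from 7 lists, and in each of them 0 genes passed at 1 µM against basal. Of 19 tested enzymes and chaperones of collagen synthesis, 3 fell and 0 rose at 10 µM against basal, where 2.64% of all genes fell and 1.32% rose: the lysyl hydroxylase Plod1 (-0.32 ± 0.06, adjusted p = 0.0312), the chaperone Fkbp10 (-0.26 ± 0.06, adjusted p = 0.0411) and the prolyl hydroxylase subunit P4ha3 (-1.09 ± 0.24, adjusted p = 0.0443). Plod1 was at 18.6, 17.9 and 15.6 TPM at basal and at 14.7, 12.8 and 12.3 TPM at 10 µM, so the groups did not overlap. The collagen chaperone Serpinh1 went from 148, 80.4 and 32.8 TPM to 128, 46.1 and 28.8 TPM, with -0.33 ± 0.11 against basal (adjusted p = 0.135), and fell against 1 µM by 0.61 ± 0.11 (adjusted p = 0.0288). P4ha1 had -0.05 ± 0.08 (adjusted p = 0.727). The median of the synthesis list was -0.05, with 7 of 19 estimates above 0. Of 14 processing and crosslinking genes, Tgm2 (transglutaminase, -0.49 ± 0.08, adjusted p = 0.0227) and Adamts3 (procollagen N-proteinase, -0.36 ± 0.08, adjusted p = 0.0476) fell and 0 rose (background of all genes 2.64% lower and 1.32% higher), with a median of -0.31. The lysyl oxidase gene Lox, which crosslinks fibrils, was at 21.2, 9.10 and 1.60 TPM at basal and 17.0, 4.32 and 0.976 TPM at 10 µM, with -0.58 ± 0.17 (adjusted p = 0.0964).

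Of 10 tested receptor genes (median -0.42) 1 passed at 10 µM against basal (background of all genes 2.64% lower and 1.32% higher), Cd93, which binds the matrix protein multimerin, with -1.22 ± 0.20 (adjusted p = 0.0218) at levels of 0.198 to 1.64 TPM. The collagen-binding integrin subunit Itgb1 (-0.08 ± 0.05, adjusted p = 0.335) and the discoidin receptor Ddr1 (0.07 ± 0.07, adjusted p = 0.611) did not pass. Of 18 matrix partners of fibrils, Sparc and Bgn fell and 0 rose (background of all genes 2.64% lower and 1.32% higher), and all 18 estimates were below 0, with a median of -0.37. Sparc, a collagen-binding glycoprotein, was at 672, 496 and 483 TPM at basal, 679, 501 and 495 TPM at 1 µM and 476, 371 and 383 TPM at 10 µM. Every 10 µM library was thus below every basal library, and the fall was 0.35 ± 0.05 on the log2 scale (adjusted p = 0.0164). Of 10 basement membrane partners, Lama1 (-0.78 ± 0.15), Lama5 (-0.66 ± 0.13), Lamb2 (-0.32 ± 0.07) and Nid1 (-0.34 ± 0.07, named after its value was seen) fell and 0 rose (the same background of 2.64% and 1.32%), with medians of -0.33 for the list and -0.01 for all genes.

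The collagen breakdown list of proteases and their inhibitors had 14 genes tested (median -0.29), of which 5 fell and 1 rose (background of all genes 2.64% lower and 1.32% higher). The gelatinase Mmp2 was at 36.3, 20.2 and 12.7 TPM at basal, 35.4, 19.1 and 13.3 TPM at 1 µM and 22.6, 12.3 and 7.85 TPM at 10 µM. It was lowest at 10 µM within each P number and fell by 0.64 ± 0.05 on the log2 scale (adjusted p = 0.0101). The gelatinase Mmp9 (-1.75 ± 0.24, adjusted p = 0.0164) and the metalloproteinase inhibitor Timp2 (-0.28 ± 0.04, adjusted p = 0.0201) also fell, as did Mmp14 and Ctsb, while Ctsl rose (these 3 named after their values were seen). Of 20 tested TGF-beta pathway genes, a pathway known to raise collagen transcription in fibroblasts, the mediator Smad3 (-0.39 ± 0.06, adjusted p = 0.0227) and the latent complex protein Ltbp1 (-0.49 ± 0.11, adjusted p = 0.0497) fell and 0 rose (background of all genes 2.64% lower and 1.32% higher), with a median of -0.16. The ligand Tgfb1 had -0.23 ± 0.08 against basal (adjusted p = 0.147) and fell by 0.39 ± 0.08 against 1 µM (adjusted p = 0.0372). All calls in these 7 lists come from the fit with the P number block, and edgeR without it called 0 genes of any kind at 10 µM against basal or against 1 µM.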

How the data were processed

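Bulk mRNA was measured in 9 libraries (3 basal, 3 at 1 µM, 3 at 10 µM). RNeasy extraction and the Illumina Stranded mRNA Prep kit were used, per the labels' protocols. FastQC, Trimmomatic, DRAGEN and Picard with build rn6 are named, per the submitters' processing notes, while for the counter, strand setting and annotation, the sources used here give nothing. As estimated counts per gene, unscaled between libraries, the authors deposited 1 table, rounded to whole numbers here. The authors also deposited TPM values, used for levels. Without the counter's strand setting, reads of overlapping genes may not be separable.

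Tests used R 4.3.3 and edgeR 4.0.16: its quasi-likelihood F test was fitted to all 9 libraries with TMM scaling after filterByExpr (a count of at least 10, a total of at least 15), with Benjamini-Hochberg adjustment over 15321 genes and a threshold of 0.05. Each SE is the absolute log2 fold change divided by the root of its F value. Where 0 reads were counted, up to 3 are allowed by counting error alone. The P number was added as an additive block because it paired the libraries: from the titles, all 9 same-number pairs had correlated deviations (r 0.319 to 0.772) against -0.708 to 0.194 in the 18 other pairs. The edgeR dispersion was 0.0675 without and 0.00696 with the block. Ratios within P numbers are differences of log2 CPM (prior count 2). Libraries of the same group always differed by more than sampling noise.

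Other settings were DESeq2 1.42.0 and its size factors, library totals, no count filter, limma 3.58.1 on log2 TPM with a pseudocount of 1 or of 0.1 (genes at 1 TPM or more in 3 libraries, or without that filter), the groups compared alone and leaving out each library. Leaving out all libraries of a P number was added after seeing the data. The members, the lists of other genes and the tests were chosen with earlier results of these data known. Members described in full were those called in any dose comparison and the 12 with the highest mean TPM. From each list the 3 smallest p-values at 10 µM against basal and a core (Serpinh1, P4ha1, Lox, Ddr1, Itgb1, Tgfb1) were named. The edgeR steps were tested on simulated data.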

Additional observations from a re-analysis of the deposited data

How the results depend on the processing

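The dose calls depended on the P number block. At 10 µM against basal the count of collagen genes called was 0 without the replicate block and 4 with it. With the block it was 4 with DESeq2 size factors, 10 with library totals, 10 with DESeq2 and 9 with no count filter. It was 2 with limma on either TPM scale, 0 with limma without the filter and 0 with the groups alone. Over all 15321 genes the blocked fit called 607, with 609, 834 and 964 for DESeq2 size factors, library totals and DESeq2. All-gene calls were 715 of 20300 with no count filter. Limma called 502 and 506 of 14371 at pseudocounts of 1 and 0.1, and 9 of 20363 without the filter. At 10 µM against 1 µM the count of collagen genes was 0 without and 10 with the block. With the block it was 10, 14, 14 and 11 under the same 4 changes. It was 7 and 6 with limma at pseudocounts of 1 and 0.1, and 0 with limma without the filter or with the groups alone. Over all genes the blocked fit called 659 here, with 656, 926, 987 and 760 under those 4 changes. Limma called 453 and 433 of all genes at the same pseudocounts, and 6 without the filter. Without the block, DESeq2 called 1 collagen gene. Leaving out each library gave 0 to 8 collagen genes in the blocked fit in both comparisons (5 at 10 µM against 1 µM without the basal P11 library). In the fit without the block it gave 0. The share of all genes called in these runs is not given here. Leaving out all P13 libraries gave 1 at 10 µM against basal, and leaving out all P11 libraries gave 3 at 10 µM against 1 µM. At 1 µM against basal every setting gave 0 collagen genes, while DESeq2 with the block called 8 of all genes. For P14 against P13 limma without the filter gave 9 collagen genes (16 in the main fit), and leaving out each library gave 10 to 17. Over all genes, limma without the filter called 919 of 20363 there (1879 of 15321 in the main fit).

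No blocked setting changed the sign of a collagen gene in a dose comparison where the main blocked fit called it. Without the block, leaving out each library gave log2 fold changes at 10 µM against basal of -1.41 to 0.28 for Col5a2 and -1.58 to 0.38 for Col6a2, the lowest without the 10 µM P11 library and the highest without the basal P11 library. At 10 µM against 1 µM they ran from -1.74 to 0.24 for Col1a1, -1.91 to 0.18 for Col3a1, -0.57 to 0.07 for Col4a1, -1.02 to 0.07 for Col4a5, -1.51 to 0.23 for Col5a2, -1.63 to 0.59 for Col6a1 and -1.57 to 0.51 for Col6a2, the lowest without the 10 µM P11 library and the highest without the 1 µM P11 library. Of all genes called at 10 µM against basal with the block, 66.7% were lower, 84.3% with library totals and 82.9% with limma on log2(TPM + 1). At 10 µM against 1 µM the shares were 69.7%, 87.4% and 84.6%, and for P11 against the others 50.2%, 60.6% and 60.6%. Depth limits the 16 collagen genes under 1 TPM.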

Other observations

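The collagens at low levels held a few uneven patterns, chosen here after their values were seen. Col23a1, a transmembrane collagen, was at 4.19, 0.63 and 0 TPM in the basal P11, P13 and P14 libraries, at 2.02, 1.51 and 0.08 TPM at 1 µM and at 2.30, 0 and 0 TPM at 10 µM. Its log2 fold change of P11 against the mean of P13 and P14, 4.37 ± 0.76 (SE), was the highest of the 37 tested collagen genes and rests on libraries near 0. Col28a1 was higher at 10 µM than at basal within each P number, with log2 ratios of 0.61, 0.43 and 0.83, as were 20.5% of all genes. It had 2, 6 and 13 reads at basal and 6, 11 and 27 at 10 µM. In the blocked edgeR fit it did not pass (0.77 ± 0.35, adjusted p = 0.242). Col20a1, a FACIT collagen, stayed between 2.72 and 4.23 TPM in all 9 libraries.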
